A study of Mus musculus with 12 samples.

Results

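The 42 genes described here build, anchor or switch on the motile cilium. They were chosen by symbol, as rows of the deposited count files, and grouped by the part of the cilium that their products form. All 42 were among the 38986 genes listed and all 42 passed the filter on low counts, which left 18405 genes in the test. They comprised 6 regulators, 3 outer and 8 inner arm dynein heavy chains, 5 smaller dynein subunits or assembly factors, 3 ruler or nexin link genes, 3 radial spoke genes, 3 central pair genes, 6 doublet, tether and tektin genes, 4 tip, membrane and tubulin genes and the nodal polycystin Pkd1l1.

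The RNA came from teratomas, tumors of mixed tissues that grow from pluripotent cells. R1 mouse ES cells, stably carrying the pEZ-Lv235 vector with its CAG promoter, were injected under the skin of male NOD-Prkdc EM1 mice aged 8 weeks, 5000000 cells each, and the teratomas were taken at day 21. The vector was empty (ET) or expressed Dnmt3L, a cofactor of the de novo DNA methyltransferases, as WT or with arginine in place of an acetylated lysine (K238R or K412R). Each group came from its own stable line and had 3 libraries. Host and graft are both mouse, so RNA of host vessels and blood cannot be told apart from that of the graft, and neither the labels nor the methods state that each library is a separate mouse. Adjusted p-values therefore measure the spread between these libraries.

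A motile cilium moves by dynein arms that walk along its doublet microtubules. Radial spokes, the central pair and nexin links turn that sliding into a beat. Cells with many motile cilia line airways, brain ventricles and the oviduct, where GEMC1 and multicilin start the programme, CCNO amplifies centrioles and FOXJ1 and RFX factors turn on axoneme genes. Cells of the embryonic node carry a single rotating cilium whose flow sets left and right. DNAH11 and DNAH5 serve outer arms in both places, and PKD1L1, with PKD2, is required for the response to that flow.

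Levels are given as CPM, the estimated count scaled to the total of its library. Library totals lay between 16957677 and 18546100 counts, and 1 RNA, Gm26917, took 7.47% to 13.9% of them. Dnmt3l itself stood at 165 to 204 CPM in WT and at 26 to 38.9 CPM in K412R. In the libraries labelled K238R it stood at 0.543 to 1.89 CPM, no higher than the 0.649 to 7.62 CPM of ET, so that name refers to the label throughout. In every group 1 library differed more from the other pair than those did from each other, by the chi-square of the counts divided by its degrees of freedom. It was replicate 2 of ET (28.2 and 57.5 against 15.4 for the other pair), replicate 1 of WT (25.4 and 28.6 against 11.3), replicate 2 under the K238R label (33.1 and 33.7 against 12.8) and replicate 3 of K412R (22.2 and 34.5 against 14.1). Each library was left out in turn, and ET replicate 2 and WT replicate 1 were also left out together, a choice made with earlier results known.

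The members fell into a large block that was high in WT and a small one that was low in WT. The share of members lower in WT than in ET was near that of all genes, as given below. For each library, the members above their own median over the 12 libraries were counted. There were 31, 34 and 34 of the 42 in the WT libraries and 1, 9 and 7 in those labelled K238R. ET was divided, with 6 in replicate 1, 39 in replicate 2 and 4 in replicate 3. K412R held 15, 31 and 41. Thus ET replicate 2 was above all WT libraries in this count, and the K412R libraries ran from 15, above ET replicates 1 and 3 and all those labelled K238R, to the highest count of all.

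**Figure D1:**
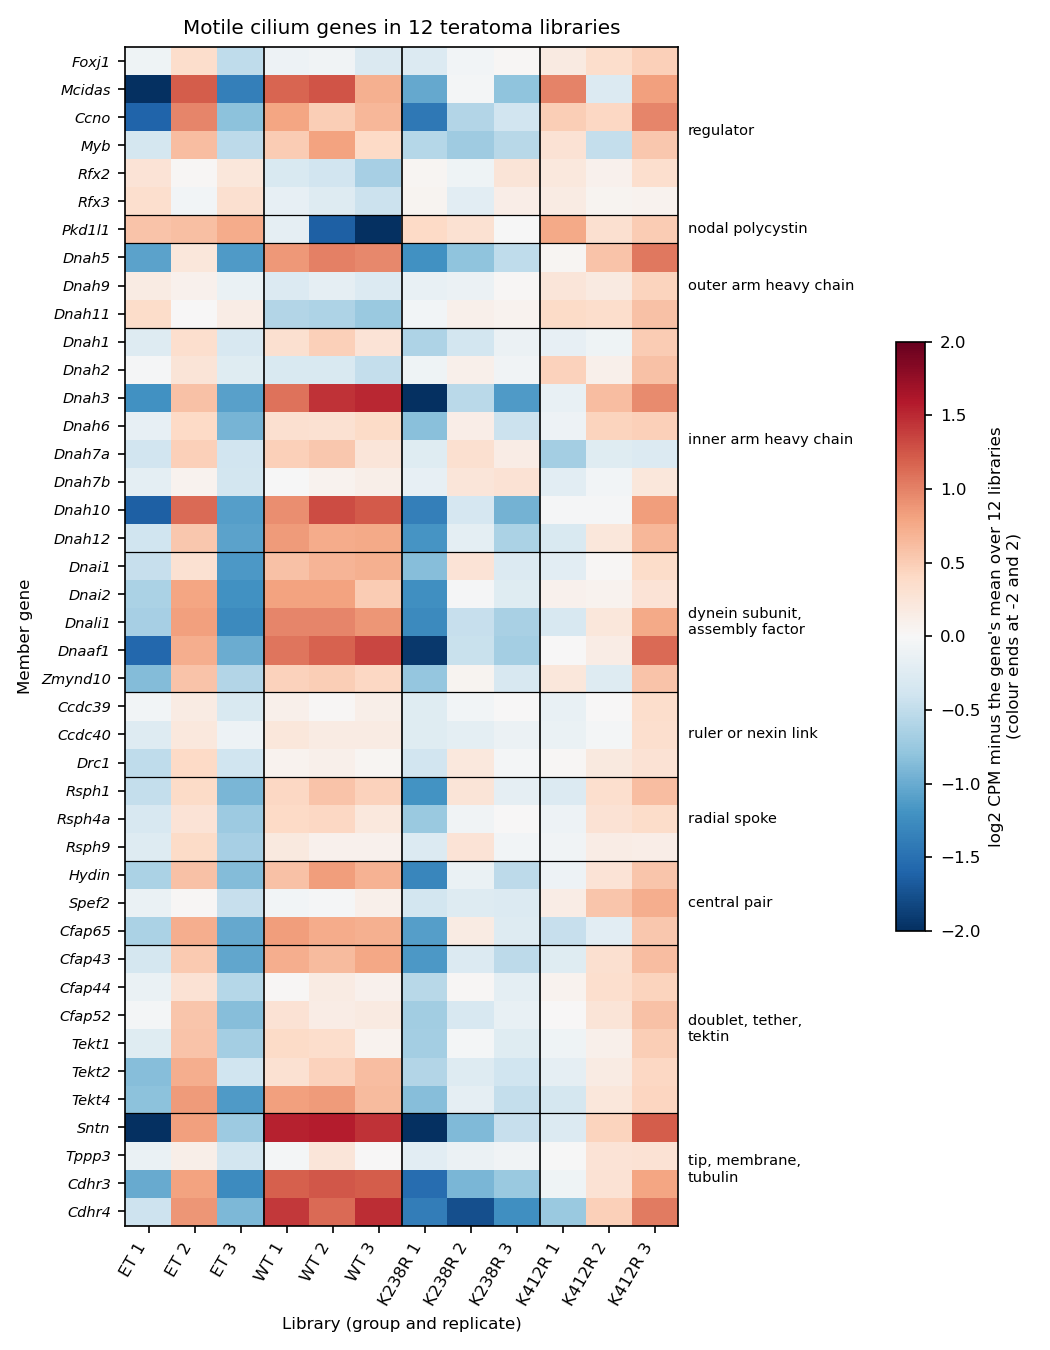
Log2 CPM of each of the 42 members in each of the 12 libraries (columns), shown as the difference from that gene's mean over the libraries, with rows grouped by structure and the colour ending at -2 and 2. Most rows are red in WT, in ET replicate 2 and in K412R replicate 3 and blue in ET replicates 1 and 3 and in the libraries labelled K238R, whereas Rfx2, Rfx3, Dnah2, Dnah9, Dnah11 and Pkd1l1 are among the rows that are blue in WT.

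The same division showed in the correlation of each member's log2 CPM with the median of the other members over the 12 libraries. Dnah11 and Pkd1l1 were left out of that median in every case. Pearson's r was above 0.8 for 32 members, below 0 for 4 and between these for 6. The 4 below 0 were Rfx3 (r = -0.65), Rfx2 (r = -0.48), Pkd1l1 (r = -0.46) and Dnah11 (r = -0.33). Dnah9 (r = 0.10) and Dnah2 (r = 0.10) stood between the blocks. With Dnah11 itself, Rfx2 correlated at r = 0.92, Dnah9 at 0.87, Pkd1l1 at 0.83, Dnah2 at 0.81 and Rfx3 at 0.77. These values describe 12 libraries that share their group structure and depth, and they carry no test.

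Differences between groups were counted by 3 rules, each set beside the share of all 18405 genes that met it. By the adjusted p of edgeR's quasi-likelihood test (under 0.05), WT against ET called 1 member, Dnah11, which was lower in WT (0.0489% of all genes). By the study's criterion of a 2-fold difference with an unadjusted p under 0.05, 8 members (19%) were higher in WT (3.3% of all genes) and 1, Pkd1l1, was lower (2.78%). Without overlap between the 3 CPM values of each group, 12 members (28.6%) were higher in WT (9.41% of all genes) and 6 (14.3%) lower (11.4%). The share of members higher in WT was thus above that of all genes by the 2-fold criterion and without overlap. The share lower was near that of all genes by both of these rules. The members' median log2 fold change was 0.55, and that of all genes tested was -0.01.

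ET replicate 2 decided most of these numbers. Without it, 34 members were called by the adjusted p (31.0% of all genes), 21 met the 2-fold criterion as higher in WT (9.41% of all genes), and the median log2 fold change was 0.97. With ET replicate 2 and WT replicate 1 both left out, 34 members were called (37.5% of all genes) and 21 were higher by 2-fold (11.2%). Leaving out ET replicate 1 lowered the 2-fold count from 8 to 4.

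In the comparison of the libraries labelled K238R with WT, the adjusted p again called only Dnah11 among the members, now higher than in WT (0.174% of all genes). By the 2-fold criterion 17 members (40.5%) were lower than in WT (3.59% of all genes) and 1, Pkd1l1, was higher (1.68%). Without overlap, 30 members (71.4%) were lower (11.3% of all genes) and 5, Dnah11, Dnah2, Dnah9, Pkd1l1 and Rfx2, were higher (12.7%). The median log2 fold change was -0.77, against 8e-04 for all genes, and it lay between -1.01 and -0.55 with each library left out. The adjusted call count was 21 without ET replicate 2 (4.3% of all genes). It was 0 without any 1 of the libraries labelled K238R, without K412R replicates 2 or 3, and without WT replicates 2 or 3. Without replicate 2 under the K238R label 0.0638% of all genes were called.

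K412R against WT gave 4 called members, Dnah11, Dnah2, Dnah9 and Rfx2, all higher in K412R (2.02% of all genes). By the 2-fold criterion 2 were higher, Dnah11 and Pkd1l1 (1.66% of all genes), and none was lower (3.38%). Without overlap 8 were higher (14.4%) and 14 lower (16.6%), with 8 of 42 being 19% and 14 of 42 being 33.3%. The median log2 fold change was -0.25. Leaving out K412R replicate 1, K412R replicate 3, WT replicate 2 or WT replicate 3 left 1 call each, Dnah11, and leaving out ET replicate 2 gave 9 (8.2% of all genes). WT is shared by the comparisons given so far, so they are not independent of one another.

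Against ET, no member was called in the libraries labelled K238R (0% of all genes), and 1, Cdhr4, met the 2-fold criterion as lower (0.641% of all genes). Only Cdhr4 had an unadjusted p under 0.05 there (3.08% of all genes were lower at that p). K412R against ET also called no member (0% of all genes), with 7 members higher at an unadjusted p under 0.05 (16.7%, against 4.37% of all genes), and 1, Dnah5, met the 2-fold criterion as higher (0.717%). Here too ET replicate 2 mattered, since without it 7 members were called in K412R against ET (1.36% of all genes) and 13 were higher by 2-fold (3.0%). DESeq2 called 1 member in K412R against ET (0.489% of all genes) and none in the libraries labelled K238R (0.0761%). A test of any difference among the 4 groups called 1 member, Dnah11 (0.168% of all genes). Without ET replicate 2 it called 37 (18.8% of all genes), and without replicate 3 of the libraries labelled K238R, K412R replicates 1 or 3, or WT replicates 2 or 3 it called none.

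**Figure D2:**
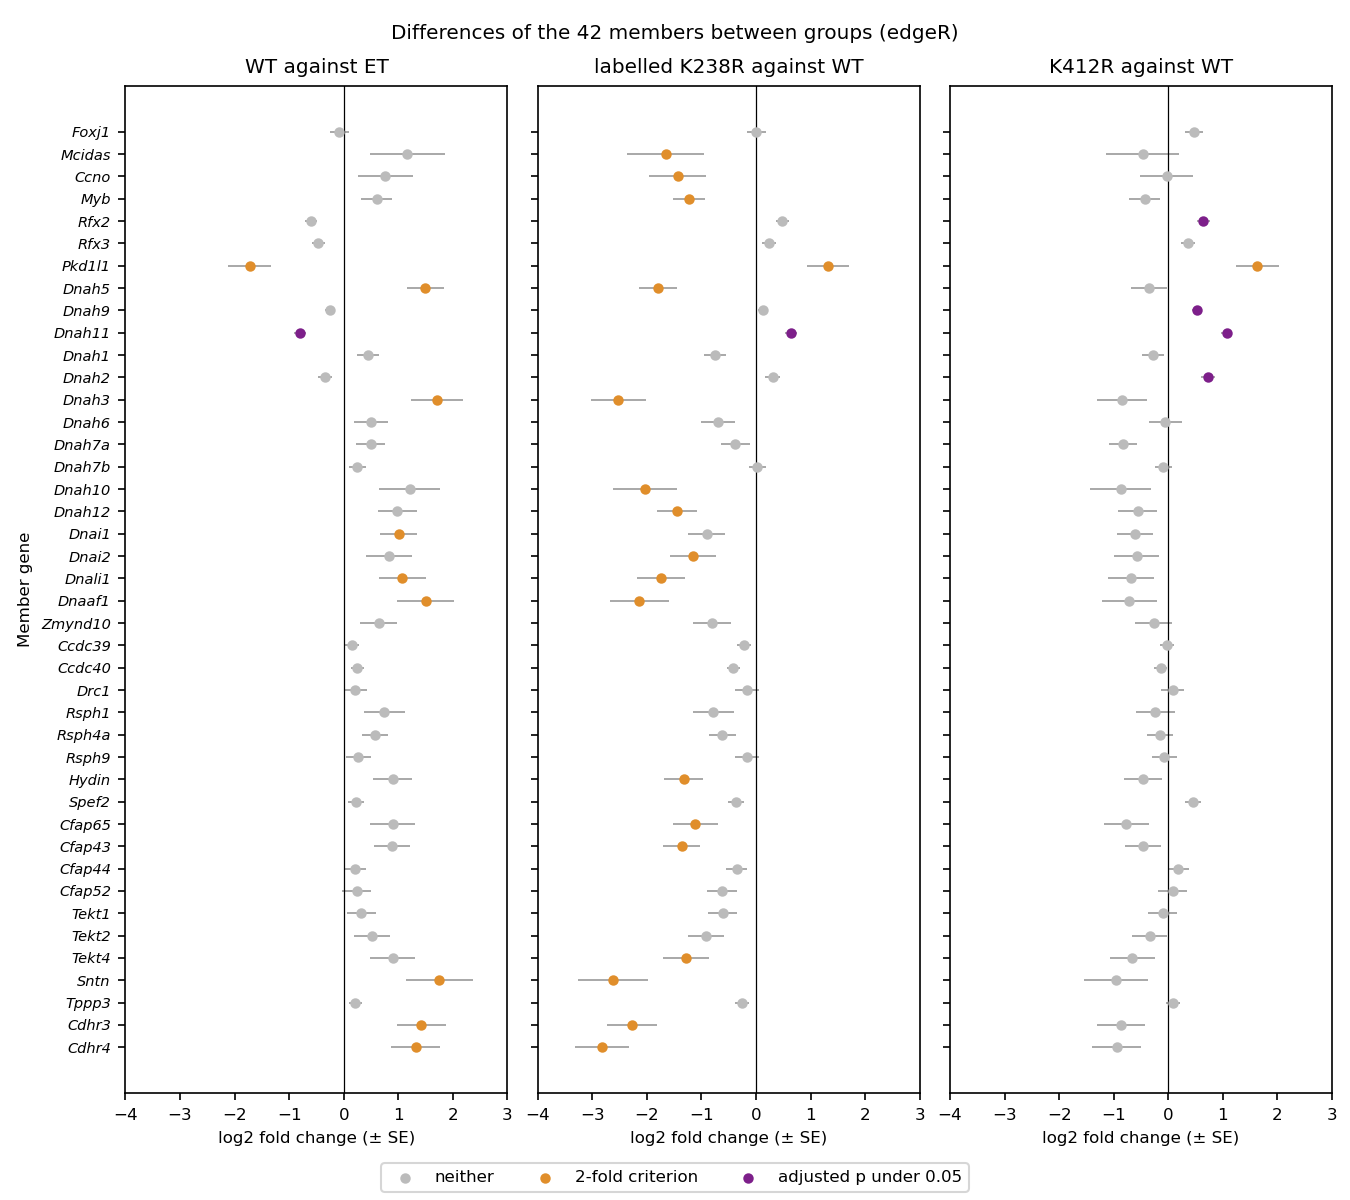
Log2 fold change ± SE of each member by edgeR in WT against ET (left), the libraries labelled K238R against WT (centre) and K412R against WT (right), coloured by the rule the gene met. Purple points mark the 1, 1 and 4 members with an adjusted p under 0.05, and orange points the other members that met the 2-fold criterion.

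The regulators did not move as 1 group. Foxj1, the forkhead factor that commits cells to motile cilia, stood at 70.5, 95.6 and 53 CPM with ET, 69.7, 71.8 and 61.6 with WT, 62, 72.2 and 75.8 under the K238R label and 84.5, 95.8 and 104 with K412R. WT lay inside the range of ET, and all K412R libraries lay above all WT libraries. No contrast of Foxj1 was called, and the log2 fold change was -0.08 ± 0.17 (SE) in WT against ET (adjusted p = 0.765) and 0.47 ± 0.17 in K412R against WT (adjusted p = 0.137). In K412R against WT 3 of 18 alternatives passed the threshold (adjusted p between 0.0253 and 0.389). Without ET replicate 2 the small difference between WT and ET had the opposite sign (0.17).

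Mcidas, which encodes multicilin, and its neighbour on chromosome 13, Ccno, had the lowest CPM per kilobase of the regulators. Mcidas had 0.227, 3.3 and 0.556 CPM with ET, 3.2, 3.4 and 2.34 with WT, 0.701, 1.39 and 0.814 under the K238R label and 2.84, 1.19 and 2.53 with K412R, and the 0.227 CPM of ET replicate 1 rested on 4 counts. For Ccno the values were 0.91, 5.42 and 1.56 with ET, 4.78, 3.9 and 4.39 with WT, 1.02, 1.83 and 2.12 under the K238R label and 3.9, 3.67 and 5.45 with K412R. Both were therefore high in WT and in ET replicate 2, and in both genes the libraries labelled K238R lay below all WT libraries. That difference met the 2-fold criterion (-1.65 ± 0.71 and -1.43 ± 0.52 on the log2 scale) without an adjusted call (adjusted p = 0.259 and 0.201). Myb, an early regulator of multiciliated cells, had 15.1, 18.6 and 13.9 CPM with WT and 7.17, 6.5 and 7.22 under the K238R label (log2 fold change -1.23 ± 0.29, adjusted p = 0.101).

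The RFX factors, which bind X-box motifs in cilium genes, were low in WT instead. Rfx2 stood at 32.4, 27 and 31.2 CPM with ET, 21.5, 20.5 and 16.8 with WT, 27.5, 25.3 and 31.8 under the K238R label and 30.9, 28.4 and 33.7 with K412R. Every WT library was below every other library. Rfx2 was higher in K412R than in WT by 0.64 ± 0.12 on the log2 scale (adjusted p = 0.0231), and this call was lost without K412R replicates 1 or 3 or WT replicates 2 or 3 (adjusted p up to 0.130, log2 fold change 0.56 to 0.70). The difference between WT and ET was -0.60 ± 0.12 (adjusted p = 0.099), which is not a call. Of 18 alternatives 6 passed the threshold there, DESeq2, the replicate block and the fit without a low-count filter among them (adjusted p between 0.00111 and 0.359), and 3 of 18 did so in the libraries labelled K238R against WT (between 0.0119 and 0.314). Rfx3 had 89.7, 68.3 and 89.2 CPM with ET and 63.5, 59.6 and 52.6 with WT (-0.47 ± 0.12, adjusted p = 0.103).

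The sequence before the start sites of the members is shown because many of them varied together and the RFX and forkhead factors among them bind known motifs. RefSeq promoter windows of the GRCm38.p6 build, 250 bases before to 50 after the start site, were at hand for 33 members. The hexamer GTTGCC, 1 arm of the X-box that RFX factors bind, was found on either strand in the windows of 18 (54.55%), against 14.14% of 27025 genes with a window. A whole X-box spelled as GTTNCC followed by GGNAAC after at most 3 bases was found in none, against 0.9362% of genes. This spelling is narrow and whole X-boxes with other letters were not counted, so it does not show that the windows lack them. The forkhead motif TGTTTAC was found in 3, Cfap43, Myb and Sntn (9.091%, against 4.052% of genes). These shares describe letters in a window and not sites in use. Stretches upstream of the start site follow in the direction of the gene, with hexamers and forkhead motifs in capitals as they read on that strand (GGCAAC and GTAAACA are the same motifs read from the other strand). A gene with several windows counted as a match if any of them held the motif. Tekt1, a microtubule lining protein gene, held a hexamer on each strand within 50 bases of 1 start site, while its other window held none.
Tekt1 (chr11:72361883-72361932, minus strand): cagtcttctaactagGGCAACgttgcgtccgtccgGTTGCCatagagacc
Mcidas (chr13:112993658-112993693, plus strand): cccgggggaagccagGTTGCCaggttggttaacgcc
Ccno (chr13:112987568-112987603, plus strand): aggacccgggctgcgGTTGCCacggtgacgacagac
Rfx2 (chr17:56831104-56831139, minus strand): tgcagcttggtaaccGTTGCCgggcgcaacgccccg
Sntn (chr14:13670626-13670830, plus strand): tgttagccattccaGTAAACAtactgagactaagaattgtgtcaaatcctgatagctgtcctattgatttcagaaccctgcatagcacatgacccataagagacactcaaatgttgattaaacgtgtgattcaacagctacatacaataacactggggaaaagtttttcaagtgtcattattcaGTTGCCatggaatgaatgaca
Cfap43 (chr19:47837395-47837431, minus strand): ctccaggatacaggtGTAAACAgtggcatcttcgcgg

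Dnah11 and Pkd1l1 had none of these motifs in their windows, and the same held for Dnah5, Dnah9 and Dnah2. Of the members that were low in WT without overlap with ET, Rfx2 and Rfx3 held a hexamer. The last 60 bases before the start of the nodal pair are given for comparison, in lower case throughout since nothing in them matched.
Dnah11 (chr12:118199044-118199103, minus strand): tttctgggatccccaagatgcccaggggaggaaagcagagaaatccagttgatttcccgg
Pkd1l1 (chr11:8974710-8974769, minus strand): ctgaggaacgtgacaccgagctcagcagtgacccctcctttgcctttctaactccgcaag

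The outer arm heavy chains, the motors of the beat, split between both patterns. Dnah11 stood at 38.8, 30.1 and 33.2 CPM with ET, 20.0, 19.7 and 18 with WT, 28.9, 32.1 and 31.4 under the K238R label and 39, 38.4 and 45.2 with K412R. All 3 WT libraries lay below the other 9, and the mean fell from 34 ± 4.43 (SD, n = 3) in ET to 19.2 ± 1.08 in WT. Its differences on the log2 scale were -0.80 ± 0.11 for WT against ET (adjusted p = 0.0291), 0.64 ± 0.11 in the libraries labelled K238R against WT (adjusted p = 0.0449) and 1.07 ± 0.11 in K412R against WT (adjusted p = 0.00257).

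These 3 calls of Dnah11 differed in how firmly they held. The call in K412R against WT was kept in all 18 alternatives, with an adjusted p of at most 0.0336. In WT against ET the call was lost whenever any single library other than ET replicate 2 or WT replicate 1 was left out, and in the fit of the 2 groups alone, with log2 fold changes from -0.89 to -0.71 and adjusted p up to 0.252. Leaving out any 1 of the WT, K412R or K238R-labelled libraries lost the call in the libraries labelled K238R against WT (0.60 to 0.69, adjusted p up to 0.195). Dnah11 was among the lineage genes that the study picked from these same teratomas, so its direction here is not independent evidence.

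An exon of Cdca7l overlaps Dnah11 on the opposite strand, and the sources used here do not state whether counting used strand. Cdca7l had 15.6, 14.8 and 27.2 CPM with ET, 16.5, 10.3 and 7.87 with WT, 17, 12.1 and 16.5 under the K238R label and 15.6, 14.4 and 16.7 with K412R. For Cdca7l, WT differed from ET by -0.72 ± 0.28 on the log2 scale (adjusted p = 0.129), and its WT and ET libraries overlapped. The part of shared reads in the values of Dnah11 was not tested.

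Dnah5 pairs with Dnah11 or Dnah9 in outer arms of motile cilia, yet ran the other way. It stood at 9.21, 22.6 and 8.84 CPM with ET, 35.4, 39 and 37.8 with WT, 8.36, 11.2 and 13.7 under the K238R label and 19.9, 28.9 and 40.5 with K412R. WT was above all ET and all K238R-labelled libraries, and K412R reached the level of WT in replicate 3. The log2 fold change met the 2-fold criterion in WT against ET (1.49 ± 0.34, adjusted p = 0.101), in the libraries labelled K238R against WT (-1.80 ± 0.34, adjusted p = 0.0671) and in K412R against ET (1.14 ± 0.34, adjusted p = 0.44).

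Set against each other within a library, the CPM of Dnah5 over that of Dnah11 reached 0.237, 0.753 and 0.266 with ET and 1.77, 1.98 and 2.10 with WT. Under the K238R label it was 0.289, 0.348 and 0.436, and with K412R 0.511, 0.753 and 0.896. Dnah5 counts thus exceeded Dnah11 counts in the WT libraries and in no other library. Both transcripts are of similar length in GENCODE M21 (15637 and 14072 bases), so length changes this ratio little.

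Dnah9, the distal outer arm chain of multiciliated cells, followed Dnah11 with smaller differences. It had 67.1, 63.5 and 54.2 CPM with ET, 49.3, 52.7 and 49.2 with WT, 54.1, 55.1 and 60.6 under the K238R label and 70.9, 67.7 and 81.1 with K412R. K412R was above WT and also above ET without overlap, and the log2 fold change against WT was 0.52 ± 0.09 (adjusted p = 0.0214). Without K412R replicates 1 or 3 or WT replicates 2 or 3 the adjusted p rose to at most 0.121 and the call was lost. Gm12296, at 0.945 to 3.58 CPM over the libraries, overlaps Dnah9 on the opposite strand.

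**Figure D3:**
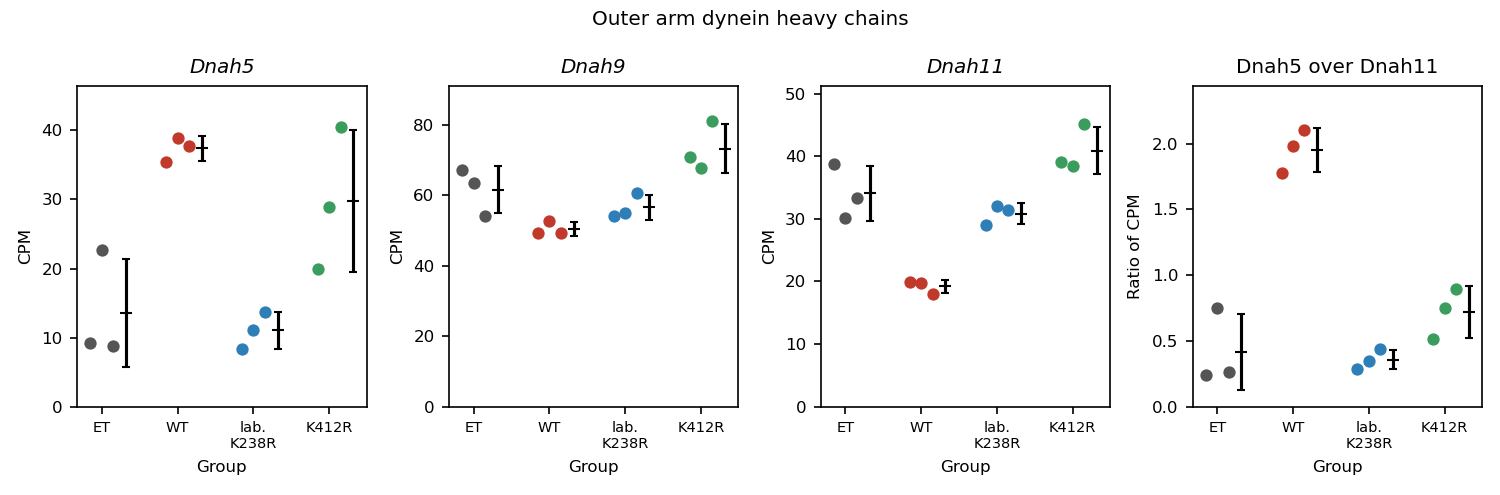
CPM of the outer arm heavy chains Dnah5, Dnah9 and Dnah11 and the ratio of Dnah5 to Dnah11 in each library (points), with the mean ± SD of each group of 3 (bars). Dnah11 is lowest in WT at 18.0 to 20.0 CPM, whereas Dnah5 is at 35.4 to 39.0 CPM there, and the ratio is 1.77 to 2.10 in WT and at most 0.896 elsewhere.

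Pkd1l1, the polycystin of the node, stood at 12.8, 13.1 and 14.4 CPM with ET, 7.64, 2.79 and 1.65 with WT, 11.4, 10.7 and 8.63 under the K238R label and 14.7, 10.7 and 12.2 with K412R. WT replicates 2 and 3 were far below all others, WT replicate 1 lay closer to them, and the WT libraries did not overlap with any other group. The mean was 13.4 ± 0.886 (SD, n = 3) in ET and 4.03 ± 3.18 in WT. No contrast passed the adjusted threshold, with log2 fold changes of -1.73 ± 0.39 in WT against ET (adjusted p = 0.101), 1.32 ± 0.39 in the libraries labelled K238R against WT (adjusted p = 0.14) and 1.63 ± 0.39 in K412R against WT (adjusted p = 0.0562). Each of the 3 met the 2-fold criterion. Over 18 alternatives the adjusted p lay between 0.000686 and 0.359 in WT against ET, where 6 passed the threshold, between 0.00291 and 0.365 in the libraries labelled K238R against WT, where 3 passed, and between 0.00115 and 0.192 in K412R against WT, where 8 passed. DESeq2 was among those that passed in each of these comparisons. Without WT replicate 1 the log2 fold changes were -2.55, 2.14 and 2.46. Pkd1l1 too was among the genes the study picked from these teratomas, where it classed Pkd1l1 and Dnah11 as cardiac regulators. For Pkd1l1 the study also reported more DNA methylation and Dnmt3L binding in ES cells with WT Dnmt3L. It further reported delayed induction of this gene in embryoid bodies.

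To contrast this pair with the rest, each library's log2 CPM was taken relative to the gene's mean over the 12 libraries. The median of the 40 other members was 0.44, 0.49 and 0.41 in WT, where Dnah11 stood at -0.59, -0.61 and -0.74 and Pkd1l1 at -0.18, -1.62 and -2.37. In ET replicates 1 and 3 the 40 others were at -0.39 and -0.73, with Dnah11 at 0.37 and 0.15 and Pkd1l1 at 0.56 and 0.74. The pair and the rest thus had opposite signs in these 5 libraries. In K412R replicates 2 and 3 and in ET replicate 2 all 3 values were at or above 0, so the opposition was not seen in every library.

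**Figure D4:**
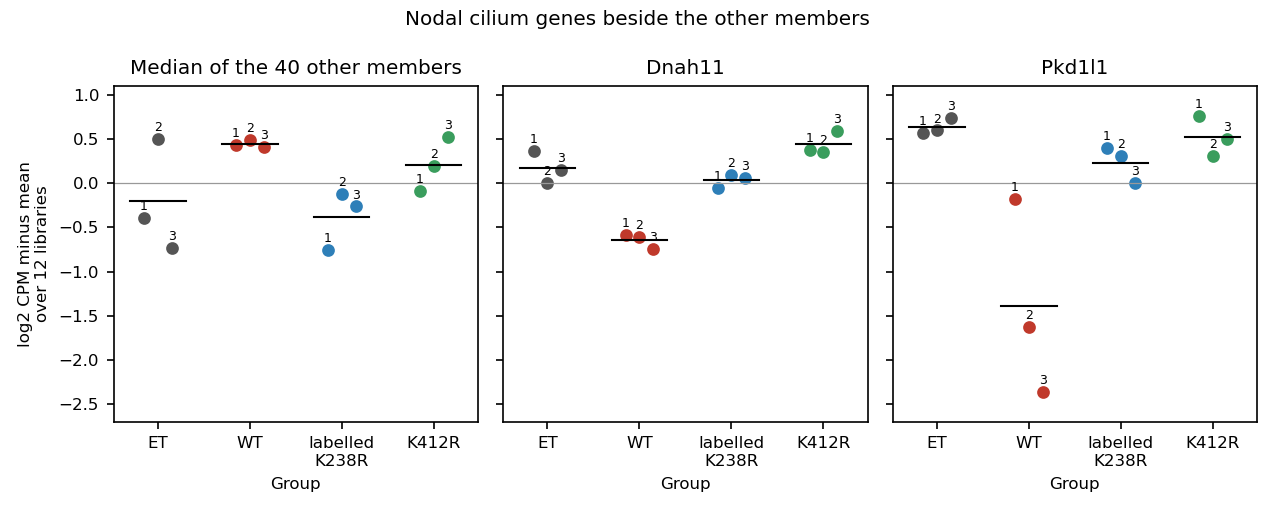
Log2 CPM relative to the mean over 12 libraries, by group, for the median of the 40 other members (left), Dnah11 (centre) and Pkd1l1 (right), with replicate numbers beside the points and group means as lines. In WT the 40 others are at 0.41 to 0.49, Dnah11 at -0.74 to -0.59 and Pkd1l1 at -2.37 to -0.18.

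Inner arm heavy chains drive bending of the axoneme, and 7 of the 8 had a positive log2 fold change in WT against ET. The widest difference was in Dnah3, with 4.04, 14.1 and 4.39 CPM with ET, 19.9, 25.6 and 26.7 with WT, 2.21, 6.45 and 4.29 under the K238R label and 8.47, 14.4 and 18.1 with K412R. It met the 2-fold criterion in WT against ET (1.72 ± 0.48, adjusted p = 0.106) and in the libraries labelled K238R against WT (-2.52 ± 0.50, adjusted p = 0.0698). Dnah10 had 23.5, 30.7 and 29 CPM with WT and 4.8, 9.78 and 6.41 under the K238R label, and ET ran from 3.98 CPM in replicate 1 to 27.1 CPM in replicate 2. Dnah12 met the same criterion in that contrast at -1.45 ± 0.36. Dnah1 and Dnah6 showed smaller differences there (-0.76 ± 0.20 and -0.69 ± 0.31).

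Dnah2 was the exception among the inner arm chains. Its levels were 88, 108 and 76.3 CPM with ET, 72.7, 73 and 64.6 with WT, 85.2, 96.6 and 85.7 under the K238R label and 123, 96.8 and 134 with K412R. WT lay below all other libraries. Dnah2 was higher in K412R than in WT by 0.73 ± 0.13 on the log2 scale (adjusted p = 0.0231), a call lost without K412R replicates 1 or 3 or WT replicates 2 or 3 (0.68 to 0.84 over the fits with 1 library left out, adjusted p up to 0.128). Dnah2os overlaps Dnah2 on the opposite strand, and no value for it was used here. The near-identical copies Dnah7a and Dnah7b may share reads, and their separate values, 5.29 ± 0.55 and 21.9 ± 0.985 CPM in WT (SD, n = 3), are uncertain for that reason.

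Smaller dynein subunits and assembly factors were positive in WT against ET in 5 of 5, with a median log2 fold change of 1.0, and negative in 5 of 5 in the libraries labelled K238R against WT (median -1.16). Dnali1, an inner arm light intermediate chain, had 6.77, 18.8 and 4.39 CPM with ET, 21, 21.1 and 19.6 with WT, 4.42, 7.78 and 6.79 under the K238R label and 8.52, 12.4 and 18.1 with K412R. It followed the median of the other members, taken without Dnah11 and Pkd1l1, most closely of all 42 (r = 0.99). Its differences met the 2-fold criterion in WT against ET (1.07 ± 0.43, adjusted p = 0.139) and in the libraries labelled K238R against WT (-1.74 ± 0.44, adjusted p = 0.106). Dnaaf1, needed to preassemble dynein arms in the cytoplasm, had 1.53, 7.49 and 2.28 CPM with ET and 9.56, 10.3 and 11.5 with WT (1.51 ± 0.52, adjusted p = 0.117). The intermediate chain genes Dnai1 and Dnai2 differed by 1.0 ± 0.34 and 0.83 ± 0.42 in that contrast, and Dnai1 met the 2-fold criterion. Exons of Dnali1, Dnai1, Dnaaf1 and Dnah3 overlap Gnl2, Enho, Taf1c and Lyrm1 on the opposite strand, which limits these values in the same way as for Dnah11.

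Rulers and nexin links varied little. Ccdc39, which with Ccdc40 sets the repeat along the doublet, had 58.8, 68.4 and 49.4 CPM with ET, 65.2, 62 and 65.7 with WT, 51.2, 58.5 and 61.4 under the K238R label and 55, 60.8 and 77.7 with K412R. The log2 fold change was 0.16 ± 0.13 in WT against ET (adjusted p = 0.425), and WT lay inside the range of ET. An exon of Ttc14, at 67.7 to 96.8 CPM over the libraries, overlaps Ccdc39 on the opposite strand, and the part of shared reads in the values of Ccdc39 was not tested. For all 3 genes of this class the difference was between 0.16 and 0.25. Radial spoke genes were intermediate at 0.27 to 0.75. Among them Rsph4a, a spoke head gene, had 14.7, 22.1 and 11.1 CPM with ET, 24.1, 24.5 and 21.3 with WT, 11.1, 17.5 and 18.5 under the K238R label and 17.2, 22.6 and 23.8 with K412R, with ET replicate 2 inside the range of WT.

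The central pair gene Cfap65 stood at 31, 79.6 and 23.8 CPM with ET, 85.8, 80.4 and 78.6 with WT, 22.5, 53.8 and 40.2 under the K238R label and 35.2, 41.7 and 70.1 with K412R. Its replicate 2 in ET was inside the WT range, and the difference of 0.90 ± 0.42 between WT and ET was not called (adjusted p = 0.176). Hydin, a projection of the central pair, was at 31.6, 37.7 and 34.3 CPM with WT and 8.57, 19.3 and 14.7 under the K238R label (-1.32 ± 0.36, adjusted p = 0.116). Spef2 differed from both in that its highest values were in K412R, at 38.3, 50.8 and 57.6 CPM against 33.6, 34.3 and 37.4 in WT and 31.7, 35.3 and 25.1 in ET. K412R did not overlap with either group (0.68 ± 0.15 against ET, adjusted p = 0.292).

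In the doublet, tether and tektin class 6 of 6 were positive in WT against ET (median log2 fold change 0.42), and 6 of 6 were negative in the libraries labelled K238R against WT (median -0.77). Cfap44, a tether of the inner arm, had 46, 61.6 and 34.1 CPM with ET, 51, 56.3 and 53.5 with WT, 34.4, 51.3 and 43.9 under the K238R label and 53.1, 63.3 and 68.8 with K412R, and its groups overlapped in every comparison with ET. Its partner Cfap43 was more divided, with 25.2, 46.3 and 15.7 CPM with ET and 53, 49.8 and 54.8 with WT (0.89 ± 0.34, adjusted p = 0.128). The tektins, filaments within the doublet wall, showed 0.32 ± 0.27 for Tekt1, 0.51 ± 0.33 for Tekt2 and 0.89 ± 0.42 for Tekt4.

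Genes of the tip and membrane held the widest differences. Sntn, whose product sentan marks the ciliary tip of airway and oviduct cells, had 0.455, 3.42 and 1.17 CPM with ET, 5.62, 5.74 and 5.3 with WT, 0.324, 1.06 and 1.41 under the K238R label and 1.62, 2.66 and 4.49 with K412R. All WT libraries were above the other 9. It differed by 1.75 ± 0.61 in WT against ET (adjusted p = 0.117) and by -2.62 ± 0.64 in the libraries labelled K238R against WT (adjusted p = 0.102). The protocadherin-like membrane gene Cdhr4 had 7.48, 6.13 and 7.82 CPM with WT, 1.08, 0.833 and 1.19 under the K238R label and 2.1, 5.19 and 1.5 in ET, and it came closest to a call in the libraries labelled K238R against WT (-2.82 ± 0.49, adjusted p = 0.0501). Cdhr3 behaved alike, at 11, 11.4 and 11.1 CPM with WT and 1.67, 2.56 and 2.88 under the K238R label. Tppp3, a tubulin polymerizing protein gene expressed well beyond cilia, was the most abundant member per kilobase of its longest transcript (89.2 CPM per kb) and was nearly level, with 114 ± 19.4 CPM with ET, 130 ± 14.1 with WT, 113 ± 5.53 under the K238R label and 141 ± 15.8 with K412R (SD, n = 3 each).

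Other genes of the same structures were listed apart from the members, and their counts by the 2-fold criterion are to be read against the shares of all genes, 3.3% higher and 2.78% lower in WT against ET, 1.68% higher and 3.59% lower in the libraries labelled K238R against WT and 1.66% higher in K412R against WT. Of 70 tested axoneme genes outside the members, 12 met the 2-fold criterion as higher in WT against ET and none as lower, and 16 were lower and none higher in the libraries labelled K238R against WT. Their median log2 fold changes were 0.40 and -0.58. Ak7, an axonemal adenylate kinase, had 14.3, 29.7 and 11.8 CPM with ET, 31.5, 30.1 and 31.8 with WT and 10.7, 18.9 and 15.5 under the K238R label. By adjusted p the list held 1 call, Mns1, higher in K412R than in WT (0.64 ± 0.11, adjusted p = 0.0172). That contrast called 2.02% of all genes. Among 24 further dynein arm and assembly genes 1 met the 2-fold criterion as higher in WT against ET, a share near that of all genes, and 5 as lower in the libraries labelled K238R against WT. The 1 call was Odad1, an outer arm docking gene, higher in K412R than in WT (0.66 ± 0.15, adjusted p = 0.0471, 2.02% of all genes called). In WT against ET the difference of Odad1 was negative (-0.47 ± 0.15, adjusted p = 0.111), while the median of its list was 0.29.

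Of 15 further genes of the multiciliation programme, 1 (Ccdc78) met the 2-fold criterion as higher in WT against ET, and 3 (Deup1, Ccdc78 and Trp73) as lower in the libraries labelled K238R against WT. At an unadjusted p under 0.05, however, 6 of the 15 were lower in WT than in ET and 1 was higher (15.1% and 14% of all genes), and the median log2 fold change was -0.07. The 6 lower genes were E2f4, E2f5, Tfdp1, Cep152, Plk4 and Rfx4. Log2 fold changes were positive for Gmnc, Deup1, Ccdc78, Trp73, Cdc20b, Ptges3l and Cetn4 (0.49 to 1.75), of which only Ccdc78 had an unadjusted p under 0.05. Foxn4 and Rfx1 stood at -0.12 and -0.07. The list summed to 474 to 582 CPM in ET and 323 to 450 in WT, so WT was below ET in this sum. It was 390 to 533 under the K238R label and 489 to 587 in K412R. The genes with the highest mean CPM in the list were Rfx4, Tfdp1 and E2f4, all among the lower ones. The sum therefore does not describe the genes with positive differences. Gmnc, which encodes GEMC1, stayed below 2 CPM in every library. Rfx4, a neural RFX factor, had 157, 108 and 90.0 CPM in WT and 266, 223 and 297 in K412R, a called difference of 1.13 ± 0.21 (adjusted p = 0.0231, 2.02% of all genes called). Genes of the primary cilium and of transport along it, which the immotile cilium of most cells shares, showed little difference. Their 49 genes summed to 1888 to 1978 CPM in ET and 1838 to 1885 in WT, and 1 met the 2-fold criterion in WT against ET. In K412R against WT 2 were called as higher, Ift80 and Tctn2 (2.02% of all genes called).

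Genes of the node and of left-right patterning were mostly lower in WT than in ET, like Dnah11 and Pkd1l1, which are in this list. Of 25 tested, 11 were lower and 1, Dnah5, was higher in WT than in ET by the 2-fold criterion. The median log2 fold change was -0.76. The 11 include Pkd1l1, and 3 of the list (Dnah11, Dnah5 and Pkd1l1) are members. In K412R against WT 10 were higher by 2-fold, Dnah11 and Pkd1l1 among them. By adjusted p 5 were called (2.02% of all genes), namely Dnah11, Bicc1, Cer1, T and Shroom3. The study itself presented Shh, Cer1 and Lefty1 as loci affected by acetylation of these lysines. The signal gene Nodal had 2.9, 2.36 and 4.5 CPM with ET, 1.29, 0.167 and 0.342 with WT, 2.27, 1.78 and 1.03 under the K238R label and 1.62, 1.64 and 3.03 with K412R. Noto, a node transcription factor, had 2.67, 2.18 and 3.06 CPM with ET and 0.787, 0.0558 and 0 with WT, the last of these at 0 counts. Shh, made by node, notochord and floor plate, was at 146, 57.3 and 164 CPM with ET and 45.6, 25.3 and 15.7 with WT (-2.07 ± 0.44, adjusted p = 0.099). Cer1 was called as higher in K412R than in WT (2.94 ± 0.45, adjusted p = 0.0134).

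**Figure D5:**
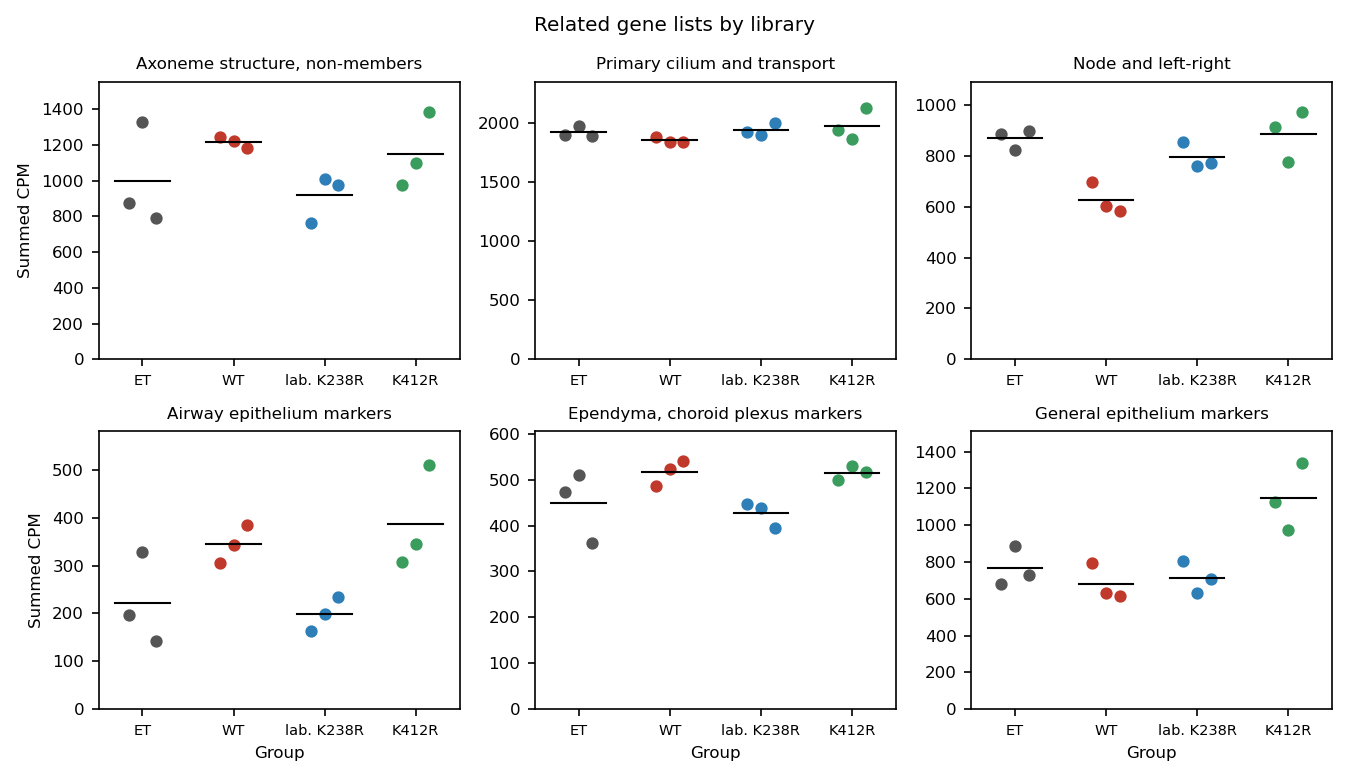
Summed CPM of 6 related gene lists in each library (points), with group means as lines, for axoneme genes outside the members, primary cilium genes, node genes and markers of airway, of ependyma and choroid plexus and of epithelium in general. Axoneme genes reach 1184 to 1247 CPM in WT, 1328 in ET replicate 2 and 973 to 1383 in K412R, airway markers are at 306 to 385 CPM in WT, 328 in ET replicate 2 and 307 to 510 in K412R, and node genes are lowest in WT at 584 to 699 CPM.

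Of the lists of tissues that bear motile cilia, the airway sum moved with part of the members. The sum of ependyma and choroid plexus markers, given below, did so over a narrower range. The 19 airway epithelium markers summed to 196, 328 and 143 CPM with ET, 306, 343 and 385 with WT, 164, 199 and 234 under the K238R label and 307, 346 and 510 with K412R, so that ET replicate 2 was again the highest of ET and K412R was as high as WT or higher. Of 13 tested, 4 met the 2-fold criterion as higher in WT against ET and 6 as lower in the libraries labelled K238R against WT. Cyp2f2, an airway club cell enzyme, carried the largest part with 33.4, 136 and 20.0 CPM with ET and 137, 177 and 194 with WT. The defining club cell gene Scgb1a1 was at 0 in 10 libraries and at 1 count in the other two, and 6 of the 19 markers were under 1 CPM in every library. In bulk tissue, fewer ciliated cells and less RNA per cell cannot be told apart, and the part of tissue composition in these results was not tested.

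For the 17 markers of ependyma and choroid plexus the sums were 474, 510 and 361 CPM with ET and 487, 523 and 541 with WT. They were 448, 439 and 395 under the K238R label and 498, 529 and 517 with K412R. Here too ET replicate 2 was the highest of ET. Their main contributors went different ways, with Aqp4 at 162 ± 83.2 CPM in ET and 307 ± 49.8 in WT (SD, n = 3), and Enpp2 at 174 ± 41.1 and 96.2 ± 9.07. Of the 16 tested, 3 were higher and 3 lower in WT against ET at an unadjusted p under 0.05 (14% and 15.1% of all genes). Compared with WT, Folr1 was called as higher in K412R and under the K238R label, and Enpp2 in K412R (2.02% of all genes called in K412R and 0.174% under the K238R label). The study reported Folr1 as repressed in WT teratomas and recovered with the mutants, so its direction here is not independent evidence. General epithelium markers, 14 in all, summed to 614 to 797 CPM in WT and 973 to 1337 in K412R, with 1 call, Prom1, a gene of plasma membrane protrusions, higher in K412R than in WT (2.02% of all genes called). The 8 oviduct markers summed to 18.7 to 38.1 CPM over all libraries and held no call. Their sums were 23.55 to 38.11 CPM in WT and 28.04 to 37.28 under the K238R label. Of 20 spermatid and sperm tail markers 14 were under 1 CPM in every library, 4 at 0 in all, and the list held no call. Their sum came mostly from Odf2, which is also a centriole gene, at 171 ± 10.8 CPM in ET. Of the airway list Foxa1 and Sftpc were called as higher in K412R than in WT (2.02% of all genes called). Foxa1, like Folr1, was among the neural genes with more DNA methylation in ES cells with WT Dnmt3L, as the study reported. The part of any marker of these lists in the members' differences was not tested.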

How the data were processed

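RNA of 12 teratomas (4 groups of 3) was purified with an RNeasy kit and poly(A) selected, and libraries were made with the CORALL V2 kit and read from both ends. Per the submitters' processing notes and the methods, the authors trimmed reads with fastp, used STAR for alignment and Salmon for quantification, on GRCm39, and GATK is also named. Versions of these programs, annotation, strand setting and use of molecular identifiers are not given in the sources used here. The authors deposited estimated counts per gene symbol, not normalized, as whole numbers with the largest values kept to 6 significant digits. No row without a gene name was found.

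From these counts, CPM was computed by library total. Tests used edgeR 4.0.16 (TMM, filterByExpr by group, quasi-likelihood F test, all 12 libraries, 1 mean per group, Benjamini-Hochberg over 18405 genes) in R 4.3.3, with the SE taken from the log2 fold change and its F value. The fits were tested on simulated counts. DESeq2 1.42.0, the tool named in the methods, was an alternative. Others were RLE factors, no filter, the compared groups alone, a replicate block, CPM by effective library size, ET replicate 2 and WT replicate 1 both left out, and each of the 12 libraries left out. Library totals were 16957677 to 18546100 estimated counts, so counting error bears most on the lowest genes, and whether a count is a read or a molecule is not given in these sources.

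Members, gene lists, tests and alternatives were chosen with earlier results of these data known. By rule, the text gives Dnah11, Pkd1l1, Foxj1, every member called by adjusted p, and the member of each class with the highest mean CPM, and of the other lists the genes called and up to 3 with the highest mean CPM. Further genes were named after their values were seen. Lengths and exon overlaps came from GENCODE M21 and promoters from RefSeq, both on GRCm38, and neither was mixed with positions in GRCm39.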

Additional observations from a re-analysis of the deposited data

How the results depend on the processing

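With 3 libraries a group, the counts of called members depended on the test and on single libraries. Of 377 alternative values of the counts and medians, 300 stayed close to the reported ones. Values in parentheses after counts of members are the shares of all genes that met the same rule in the same fit. DESeq2 called 11 members in WT against ET (10.3%), 16 in the libraries labelled K238R against WT (4.27%), 7 in K412R against WT (9%), 1 in K412R against ET (0.489%) and 19 among the 4 groups (10.8%). Fits of the compared groups alone called 0 in WT against ET (0%), 15 in the libraries labelled K238R against WT (2.03%) and 13 in K412R against WT (10.7%), and the test among 4 groups was not run on 2. Without the low-count filter the calls were 4 in WT against ET (0.624%), 11 in the libraries labelled K238R against WT (0.875%) and 8 among the 4 groups (1.18%). With RLE factors in place of TMM, no count or median moved beyond the limits used.

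With ET replicate 2 and WT replicate 1 both left out, the calls were 34 in WT against ET (37.5%), 22 in the libraries labelled K238R against WT (11.3%), 10 in K412R against WT (18.2%), 6 in K412R against ET (1.98%) and 34 among the 4 groups (29.4%). By the 2-fold criterion the same fit gave 21 higher in WT against ET (11.2%), 13 higher in K412R against ET (2.79%), 1 lower in K412R against WT (5.25%), and 1 higher (1.55%) and 0 lower (0.981%) in the libraries labelled K238R against ET. The members' median for WT over ET was then 1.0.

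Neither the labels nor the methods state whether libraries with the same replicate number are paired, and the main tests used no pairing. Over 18 pairs of libraries with the same number, deviations from the group means correlated between -0.21 and 0.33, and 7 exceeded 0.1. With the replicate number as a block, 6 members were called in WT against ET (4.98%), 8 in the libraries labelled K238R against WT (1.13%), 6 in K412R against WT (6.28%) and 3 among the 4 groups (0.951%), 12 met the 2-fold criterion as higher in WT against ET (4.09%), and 2 as lower in K412R against WT (3.67%).

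Leaving out each library in turn, the calls ranged from 0 to 34 in WT against ET, from 0 to 21 in the libraries labelled K238R against WT, from 1 to 9 in K412R against WT, from 0 to 7 in K412R against ET and from 0 to 37 among the 4 groups. By the 2-fold criterion the ranges were 4 to 21 higher in WT against ET, 0 to 13 higher in K412R against ET, 0 to 2 lower in K412R against WT, 0 to 1 higher in the libraries labelled K238R against WT, and 0 to 1 higher and 0 to 6 lower in those against ET. The highest of these counts came without ET replicate 2, except that the 6 lower members came without ET replicate 1 and the 2 lower members without K412R replicate 3. The share of all genes that met each rule also moved between these fits, and it is given above for the fits without ET replicate 2. These ranges therefore do not describe the members alone. Medians of the members ranged from 0.36 to 0.97 in WT against ET and from -1.01 to -0.55 in the libraries labelled K238R against WT.

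Of 588 alternative values of single genes 32 lost a call (Dnah11, Dnah2, Dnah9 and Rfx2), 31 gained one (Pkd1l1, Rfx2 and Foxj1) and 13 turned direction, the last all for differences that were not called and lay near 0. The 588 include 48 mean CPM values, which carry no call, and a call could be lost only in a called difference. Each of those had 18 alternatives. For Dnah11 the call was lost in 11 in WT against ET, 9 in the libraries labelled K238R against WT and 0 in K412R against WT. Dnah2, Dnah9 and Rfx2 each lost it in 4 in K412R against WT. In the libraries labelled K238R against ET, with each library left out, Dnah2 ranged from -0.136 to 0.111 and Foxj1 from -0.251 to 0.174, and with both libraries left out they stood at 0.112 and 0.175. Foxj1 ranged from -0.0415 to 0.0898 in those against WT, and from -0.258 to 0.165 in WT against ET (0.163 with both left out). Rfx2 ranged from -0.0099 to 0.0879 in K412R against ET and was -0.0339 with both left out. The cause of these shifts was not tested.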
